A study of Mus musculus with 5 samples.

Results

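The miR-181 family of microRNAs (miRNAs) was examined in mouse bone marrow-derived dendritic cells (BMDCs) treated with flagellin (FliC), the protein subunit of the bacterial flagellum, or with medium alone. Its members were taken by name, as every mouse miRNA on the array called miR-181a, b, c or d in its 5p or 3p arm, with a copy number where the name has one (mmu-miR-181a-5p and so on, the prefix mmu standing for mouse). This gave 10 of the 1122 mouse miRNAs on the array, namely 4 5p arms and 6 3p arms. Of these 10 members, 3 were detected on all 5 arrays, 2 on some of them and 5 on none.

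The BMDCs came from the bone marrow of C3H/HeJ mice, a strain with a defective receptor for lipopolysaccharide. Per the methods, the animals were females or males aged 6 weeks, and cells were cultured with rmGM-CSF and rmIL-4 and harvested on day 7. All groups shared this culture and a selection for CD11c+ cells on magnetic beads, which does not remove macrophages or other cells that carry CD11c. The flagellin group (3 arrays) received 100 ng/ml flagellin for 24 h, and the medium group (2 arrays) was kept for 24 h without it. Each array measured Cy3-labelled total RNA of 1 sample in 1 colour. The sources do not say whether the arrays of a group came from separate mice or cultures, so a p-value here measures only the spread between these arrays, which may be technical.

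miRNAs are short RNAs that guide silencing complexes to messenger RNAs, and the target is chosen largely by pairing with the seed, the bases next to the 5' end. Each miR-181 hairpin gives a 5p and a 3p arm, of which the 5p arm is the one usually retained as the guide, and the hairpins lie close together in clusters. In the haematopoietic system the family is best known for tuning T cell receptor signalling and for its part in lymphocyte development.

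The mature sequences of the 5p arms are shown because all 4 carry the same seed and differ elsewhere, so that a probe has to tell them apart by the rest. They were taken from RefSeq (GRCm38.p6), which matched 10 of the 10 members, and are written 5' to 3' with bases 2 to 8, the seed, in capitals.
miR-181a-5p: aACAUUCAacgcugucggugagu
miR-181b-5p: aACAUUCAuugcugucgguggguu
miR-181c-5p: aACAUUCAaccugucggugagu
miR-181d-5p: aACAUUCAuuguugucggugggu

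Counted from the 5' end of the first-named miRNA, miR-181a-5p and miR-181b-5p differed by A9U, C10U and A21G, and miR-181b-5p (24 nt) was longer by 1 base than miR-181a-5p (23 nt). The pair miR-181b-5p and miR-181d-5p (23 nt) differed by the single substitution C12U. Against miR-181a-5p, miR-181d-5p carried A9U, C10U, C12U and A21G. miR-181c-5p was the shortest, with 22 nt, and equalled miR-181a-5p except for 1 base that it lacked. No other mouse miRNA in the RefSeq table had this seed.

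The 3p arms are shown for their seeds, which split them into 4 groups, and because they alone tell the genomic copies of miR-181a and miR-181b apart. The seed is again in capitals.
miR-181a-1-3p: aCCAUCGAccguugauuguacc
miR-181c-3p: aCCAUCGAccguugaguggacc
miR-181a-2-3p: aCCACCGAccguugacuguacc
miR-181b-1-3p: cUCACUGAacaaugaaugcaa
miR-181b-2-3p: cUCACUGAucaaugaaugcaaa
miR-181d-3p: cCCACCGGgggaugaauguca

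miR-181a-1-3p and miR-181c-3p shared a seed, as did miR-181b-1-3p and miR-181b-2-3p. The seeds of miR-181a-2-3p and miR-181d-3p were each found in 1 member. None of these seeds occurred in a mouse miRNA outside the family in that table.

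The probes are shown because they set how far the array can separate these miRNAs. For each 5p arm the longer of its 2 probes is printed, 5' to 3', with the bases outside the longest run shared with another member in capitals.
miR-181a-5p probe: actcaccgacagCG
miR-181b-5p probe: acccaccgacaGCA
miR-181c-5p probe: actcaccgacagGTTGAAT
miR-181d-5p probe: acccaccgacaACAATG

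The miR-181a-5p probe shared a run of 12 nt with miR-181c-5p, so only 2 of its 14 bases lay outside that run. The miR-181b-5p probe shared 11 nt with miR-181d-5p and had 3 bases outside it. The longer c and d probes had 7 and 6 bases outside the shared run. These capitals do not count differing bases. Over the whole mature sequence, miR-181c-5p lacked 1 base of miR-181a-5p, and miR-181d-5p differed from miR-181b-5p by C12U and 1 missing base. How much signal of one member came from RNA of another was not tested. The probes of miR-181a-2-3p paired with 13 to 16 nt of its RefSeq sequence and ran 3 nt past its end, into bases that the RefSeq hairpin holds.

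By the positions in the files (mm9), the family lay in 3 clusters. The first spanned chr1:139863054-139863285 on the plus strand and held miR-181a-1 and miR-181b-1. The second spanned chr2:38708270-38709424 on the plus strand with miR-181a-2 and miR-181b-2, and the third spanned chr8:86702627-86702848 on the minus strand with miR-181c and miR-181d. In the RefSeq annotation, a later build used here for gene order only, the chromosome 1 cluster overlapped no annotated gene and lay between Nr5a2 and Ptprc, the gene of the leukocyte antigen CD45. The chromosome 2 cluster lay within Nr6a1, a nuclear receptor gene, and its antisense transcript Nr6a1os. The chromosome 8 cluster overlapped no annotated gene, and its nearest neighbour beyond miR-181c was Mir23a. Because the chromosome 1 and chromosome 2 copies give the same 5p arms, the signals of miR-181a-5p and miR-181b-5p could not be assigned to either cluster.

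The array gave each miRNA a total gene signal, in arbitrary units, which summed only those of its probes whose signal was over 3 times the error that the scanner software estimated. Where no probe passed, the value was set to 0.1 and the miRNA counted as not detected. Across the 5 arrays, between 292 and 317 mouse miRNAs were detected, 317 of them on the array of medium replicate 1. For scaling, 277 mouse miRNAs that every array had detected were used: their 75th percentile, 211 to 293 by array, was the divisor, and values below 0.0121 were raised to that floor (−6.37 on the log2 scale). The 307 mouse miRNAs detected on at least 2 arrays were tested with limma. Of these, 2 had an adjusted p under 0.05, both lower in flagellin-treated BMDCs and neither a member. They were miR-466i-3p, with a log2 fold change of −1.06 ± 0.07 (SE, limma adjusted p = 0.0106), and miR-5112, with −0.79 ± 0.08 (SE, limma adjusted p = 0.0363). Both are named here after their values were seen. By the paper's qRT-PCR, miR-5112 was lower after flagellin, whereas miR-466i-3p hardly changed. The count of 2 ran from 0 to 4 under alternative processing, given in the last section.

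The labelled cell type was checked against miRNAs known from other cells. All 5 miRNAs listed as myeloid were detected, with a summed scaled signal of 22.0 to 25.6 under flagellin and 22.7 to 23.4 in medium. They also stand in the lists of blood cell or Toll-like receptor miRNAs given below, so their detection does not single out myeloid cells. The lymphoid marker miR-150 was not detected in either arm. Of the markers on the array, 1 of 3 erythroid, 1 of 2 endothelial, 3 of 6 stromal and 1 of 5 epithelial miRNAs were detected on at least 1 array. Among these, miR-451 of red cells (0.0579), miR-126-3p of endothelium (0.0993) and miR-199a-3p of stroma (0.141) had their highest scaled signal on flagellin replicate 2. In such RNA from many cells, fewer cells of a type and less RNA per cell cannot be told apart.

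**Figure D1:**
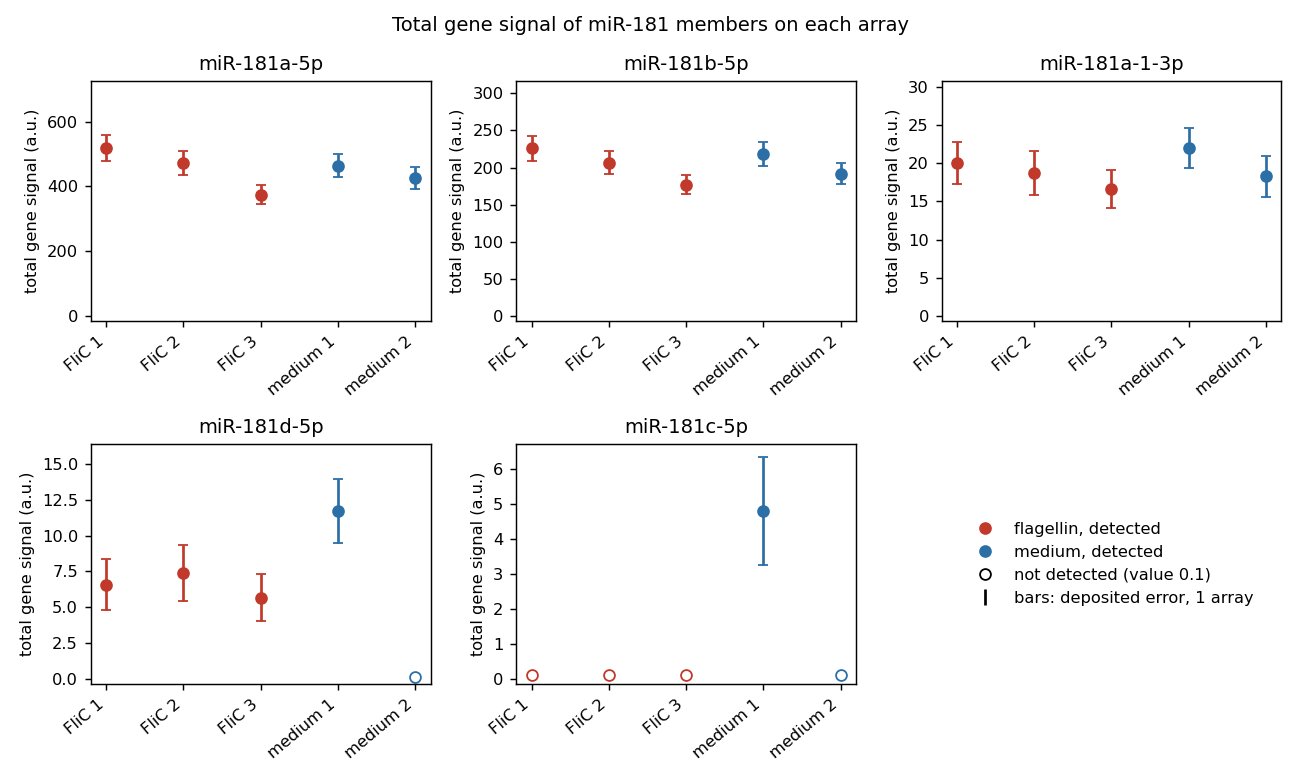
Total gene signal (arbitrary units, linear axes starting at about 0) of the 5 members detected on at least 1 array, for 3 flagellin and 2 medium arrays, with the deposited error of each array's value as bars and open symbols at 0.1 where no probe passed detection. miR-181a-5p, miR-181b-5p and miR-181a-1-3p overlapped between the groups, miR-181d-5p was missing on medium replicate 2, and miR-181c-5p was present on medium replicate 1 only.

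miR-181a-5p and miR-181b-5p were detected in flagellin-treated and in medium-treated BMDCs at signals far above the limit, and neither differed between the treatments beyond the spread between arrays. In the cells given flagellin, mmu-miR-181a-5p had a total gene signal of 518, 472 and 375, and in those kept in medium it had 465 and 426. Flagellin replicate 3 was the lowest of the 5 and flagellin replicate 1 the highest, so that the groups overlapped. After scaling, the flagellin values of 1.84, 1.61 and 1.78 stood against medium values of 1.65 and 1.73, which narrowed the range and left the overlap. The flagellin arrays averaged 1.75 ± 0.12 (SD, n = 3) and the medium arrays 1.69 ± 0.06 (SD, n = 2). The log2 fold change was 0.05 ± 0.09 (SE; 95% interval −0.20 to 0.29), which limma put at an adjusted p = 0.923. On the linear scale that interval ran from a ratio of 0.873 to 1.22.

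mmu-miR-181b-5p gave 226, 207 and 177 under flagellin, and 218 and 192 in medium, as total gene signal. Here too flagellin replicates 1 and 3 were the ends of the range, with both medium arrays between them. Scaled, the flagellin arrays held 0.804, 0.705 and 0.840 (mean 0.783 ± 0.070, SD, n = 3) and the medium arrays 0.773 and 0.779 (mean 0.776 ± 0.0046, SD, n = 2). The medium values lay within the flagellin values. The log2 fold change of 0.01 ± 0.10 (SE; 95% interval −0.26 to 0.28) had an adjusted p = 0.990 by limma. Its sign turned with the scaling, to −0.016 without scaling and −0.073 with quantile normalization. The error that the scanner software gave within an array was 7.68% to 7.80% of the signal for miR-181a-5p and 7.36% to 7.45% for miR-181b-5p.

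Of the 3p arms, miR-181a-1-3p of the chromosome 1 cluster was detected on all arrays, and no other 3p arm was detected on any. Flagellin-treated cells gave total gene signals of 20.0, 18.8 and 16.7 for it, and medium-treated cells 22.0 and 18.3. Medium replicate 1 was the highest and flagellin replicate 3 the lowest, while medium replicate 2 lay among the flagellin arrays. Scaled, these became 0.0712, 0.0640 and 0.0791 under flagellin, against 0.0779 and 0.0742 in medium, again overlapping. The log2 fold change was −0.10 ± 0.11 (SE; 95% interval −0.40 to 0.21; limma adjusted p = 0.878), and it turned to 0.09 when the 75th percentile was taken over all mouse miRNAs, a scaling that also moved the median of all tested miRNAs from 0.01 to 0.19. Within the first array row of the slide, with 2 flagellin arrays and 1 medium array, the difference was 0.02. In the second row, with 1 array of each, it was −0.28. The error of its signal was 11.9% to 15.3%.

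The other 3p arms gave no signal above the limit. miR-181a-2-3p, miR-181b-1-3p, miR-181b-2-3p, miR-181c-3p and miR-181d-3p were covered by 12 probes, and their 60 signals lay between −0.92 and 1.15 times their error, 40 of them below 0. Neither 3p arm of the chromosome 2 cluster was therefore detected with these probes. Those of miR-181a-2-3p ran 3 nt past its RefSeq end and had 10 spots each, against 20 for those of miR-181b-2-3p. The part of the probes in this result was not tested. The highest of these values belonged to the 16 nt probe of miR-181d-3p, which read 0.514, 1.02 and 0.654 under flagellin, against 1.70 and 1.67 in medium. The medium values were above the flagellin values, but all 5 lay under the limit, which was between 4.43 and 5.38 for this probe, and no order is drawn from them.

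**Figure D2:**
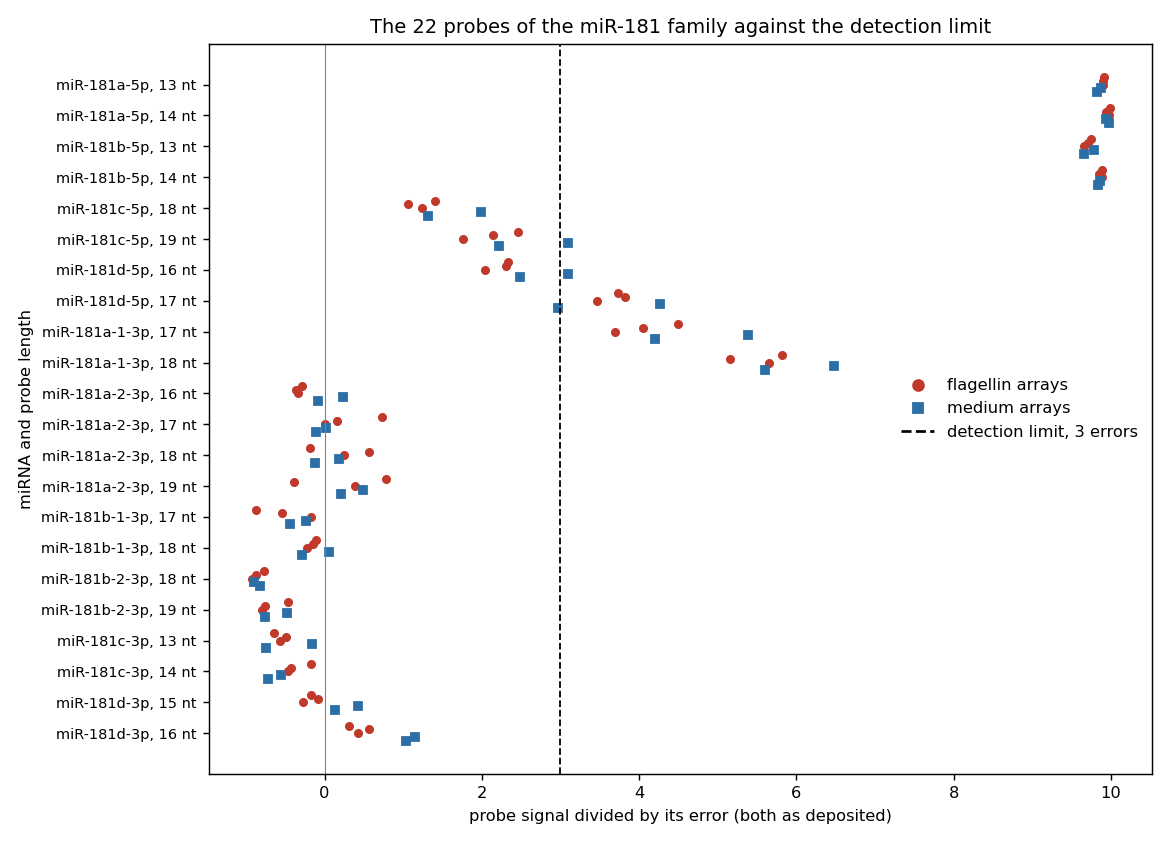
Signal divided by its error (horizontal axis, no unit) of each of the 22 probes of the family (rows), with a point per array, circles for 3 flagellin and squares for 2 medium arrays, and a dashed line at the detection limit of 3 errors. The probes of miR-181a-5p and miR-181b-5p sat between 9.65 and 9.98, those of miR-181c-5p and miR-181d-5p between 1.06 and 4.27 on both sides of the line, and those of the 5 undetected 3p arms at or below 1.15.

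The 5p arms of the chromosome 8 cluster lay near the detection limit, and their deposited values turned on single probes passing it. For the family's 2 members detected on some arrays only, the signal over error ran from 2.04 to 4.27 for miR-181d-5p and from 1.06 to 3.1 for miR-181c-5p. Over the whole array, 52 mouse miRNAs, or 4.63%, were detected on 1 to 4 arrays.

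mmu-miR-181d-5p was detected on all flagellin arrays and on medium replicate 1. Its total gene signal was 6.57, 7.39 and 5.67 with flagellin, 11.7 on medium replicate 1, and not detected on medium replicate 2. The medium arrays thus lay on either side of the flagellin arrays. The log2 fold change, with the floor in place of the undetected value, was 0.17 ± 0.55 (SE; 95% interval −1.28 to 1.61; limma adjusted p = 0.953), so that ratios from 0.413 to 3.05 were within the interval. Without medium replicate 1 it was 1.06, measured against the floor alone (limma adjusted p = 0.205, the lowest of any member under any alternative), and without medium replicate 2 it was −0.72 (limma adjusted p = 0.399). Each array row held 1 medium array, replicate 2 in the first row and replicate 1 in the second. The differences within rows, 1.05 in the first and −0.72 in the second, therefore repeat this split and are no separate observation.

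The 17 nt probe of miR-181d-5p decided these calls. It read 6.57, 7.39 and 5.67 under flagellin, against 6.95 and 4.93 in medium. On medium replicate 2 the limit was 4.99, so the probe fell short of it with 2.97 times its error. The 16 nt probe gave 3.90, 4.24 and 3.20 under flagellin, against 4.77 and 4.06 in medium, and it passed on medium replicate 1 only, where the error of 1.54 was the smallest of the 5 arrays. The value of 11.7 on that array is therefore the sum of both probes, while the flagellin values are those of 1 probe.

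Summing both probes on every array, without the detection rule, brought the miR-181d-5p arrays together. The flagellin sums of 10.5, 11.6 and 8.87 stood against medium sums of 11.7 and 8.99. The groups overlapped over nearly their whole range. The log2 fold change of the scaled sums was 0.02, with an exact two-sided permutation p = 0.7 over the 10 splits of 3 against 2 arrays, a design whose smallest possible p is 0.1.

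mmu-miR-181c-5p was not detected on any flagellin array, nor on medium replicate 2, and was measured on medium replicate 1 with a total gene signal of 4.79 (error 1.55). It was therefore not among the miRNAs tested with limma, and its total gene signal gives no fold change between the groups. Its 19 nt probe read 4.15, 3.92 and 2.74 under flagellin, against 4.79 and 3.61 in medium, with 3.1 times the error on the array where it passed. Its 18 nt probe passed on none. On that array 317 mouse miRNAs were detected, more than on any other, and the part of this in the call was not tested.

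The sums of both miR-181c-5p probes were 6.45, 5.83 and 4.66 under flagellin, against 7.76 and 5.73 in medium, and in these unscaled sums the groups overlapped. Scaled, the flagellin sums lay below both medium sums, at log2 −5.45, −5.65 and −5.50 against −5.18 and −5.43. The log2 fold change of these scaled sums was −0.23 (exact two-sided permutation p = 0.1, the smallest that this design allows). The 19 nt probe was under 3 errors on 4 of the 5 arrays and the 18 nt probe on all 5. Neither the order of the groups nor this fold change is therefore read as a difference under flagellin. The only value of this member to pass detection was the 1 on medium replicate 1.

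**Figure D3:**
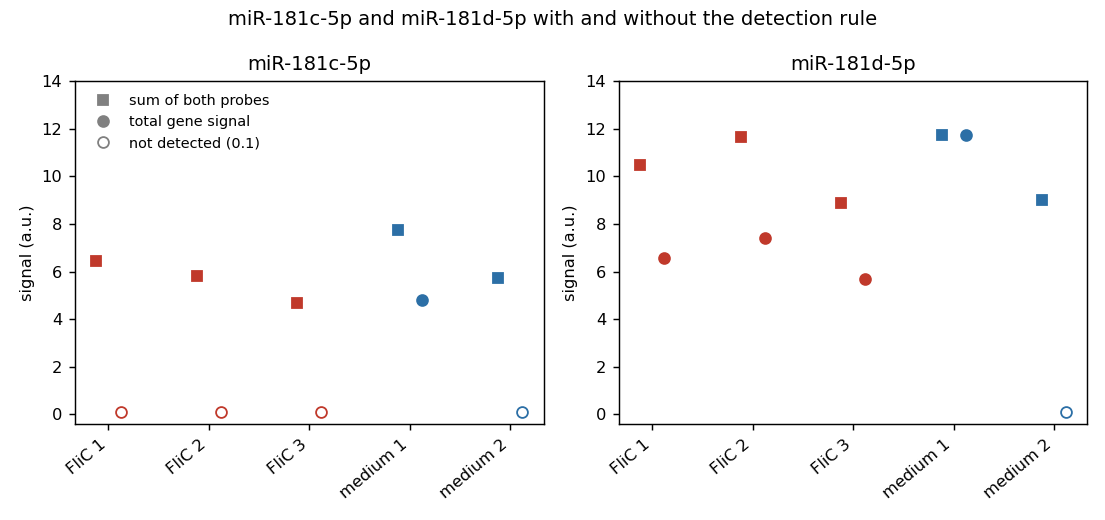
Signal (arbitrary units) of miR-181c-5p and miR-181d-5p on each of 3 flagellin and 2 medium arrays, as the sum of both probes (squares) and as the deposited total gene signal (circles, open at 0.1 where not detected). The sums of miR-181d-5p lay between 8.87 and 11.7 on all arrays, whereas its total gene signal ran from 0.1 to 11.7.

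Whether the 5p arms of the chromosome 8 cluster moved differently from miR-181a-5p and miR-181b-5p under flagellin was addressed over 4 pairs. The measure was the difference of their log2 fold changes. With the detection rule, the value of the chromosome 8 member in all 4 pairs rested on the floor that stands in for undetected arrays. For miR-181d-5p, with 1 array at the floor, the difference was 0.12 against miR-181a-5p and 0.16 against miR-181b-5p, each with an exact two-sided permutation p = 0.8 (adjusted over the 4 pairs, 0.8). A floor 10 times lower moved them to 1.78 and 1.82, and leaving out medium replicate 1 to 1.05 in both. With both probes summed and no detection rule they were −0.02 and 0.02. For miR-181c-5p, 4 of the 5 arrays were at the floor, and the computed differences of −0.29 and −0.26 compare that floor with the value of medium replicate 1. They were −0.010 and −0.0037 without that array and −1.95 and −1.92 with the lower floor, so they are given as values, with no test. With both probes summed and no detection rule, the miR-181c-5p differences were −0.27 and −0.24. Each had an exact two-sided permutation p = 0.1 (adjusted over the 4 pairs, 0.2). Those sums came from probes under the limit on most arrays, and no difference is drawn from them. No pair could have passed 0.05 with these numbers of arrays.

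The tested members were then set beside all miRNAs tested. None of the 4 tested members had an adjusted p under 0.05 by limma, against 0.651% of the 307 tested, and none had an unadjusted p under 0.05, against 5.86%. None had flagellin and medium arrays that did not overlap, against 20.2% of those tested. Their median log2 fold change was 0.03, with 3 above 0 and 1 below, and the median over all 307 was 0.01.

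**Figure D4:**
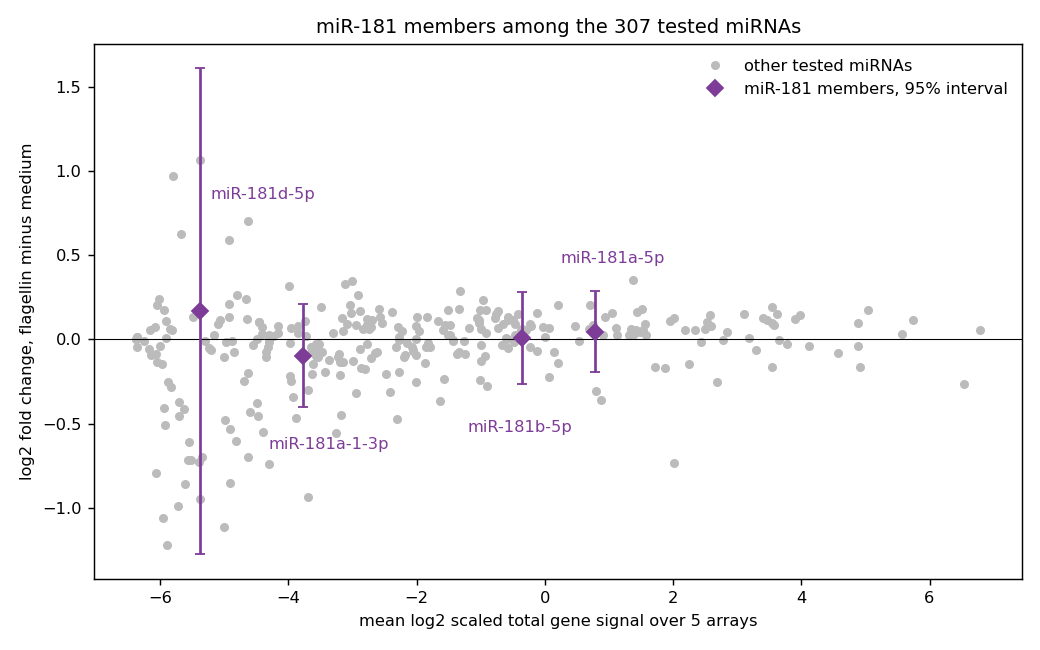
Log2 fold change (flagellin minus medium, vertical axis) against the mean log2 scaled total gene signal over 5 arrays (horizontal axis) for the 307 tested miRNAs in grey, with the 4 tested miR-181 members as diamonds and their 95% intervals from limma as bars. The intervals of all 4 members include 0, and that of miR-181d-5p, from −1.28 to 1.61, is the widest of the 4.

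The miRNAs whose centred log2 values over the 5 arrays lay nearest to those of miR-181a-5p were let-7d-5p, miR-378b and miR-103-3p, with root mean square differences of 0.0211, 0.0229 and 0.0233. The median over the 276 miRNAs compared was 0.136. For miR-181b-5p the nearest were miR-125a-5p (0.0182), miR-342-3p (0.0280) and miR-669a-5p (0.0297), with a median of 0.130. The pair miR-181a-5p and miR-181b-5p differed by 0.0482, which ranked miR-181b-5p 26th from miR-181a-5p and miR-181a-5p 15th from miR-181b-5p. These are descriptions over 5 arrays that share their scaling.

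A list of miRNAs known to respond to Toll-like receptor signals, a pathway by which cells sense flagellin, gave the setting for these values. All of its 16 members were on the array, miR-21a-5p under its older name miR-21-5p, and 12 were tested, of which none passed an adjusted p of 0.05 by limma. Their median log2 fold change was 0.083 (range −0.14 to 0.35), with 4 of the 12 higher on all flagellin than on both medium arrays, against 11.4% of all tested, and 0 lower on all of them, against 8.79%. miR-155-5p, which is induced in activated myeloid cells, had scaled signals of 2.97, 2.69 and 2.95 under flagellin, against 2.12 and 2.37 in medium, a log2 fold change of 0.35 (limma adjusted p = 0.650). This was the highest log2 fold change of the 12. The miR-155-5p arrays did not overlap between the groups, unlike those of miR-181a-5p and miR-181b-5p, but this held for 20.2% of all tested. No response is drawn from it. Of 15 miRNAs typical of blood cells, 12 were tested and none passed, with a median of 0.076. On all flagellin arrays 4 of them were higher than on both medium arrays and 0 lower, beside the same 11.4% and 8.79% of all tested.

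**Figure D5:**
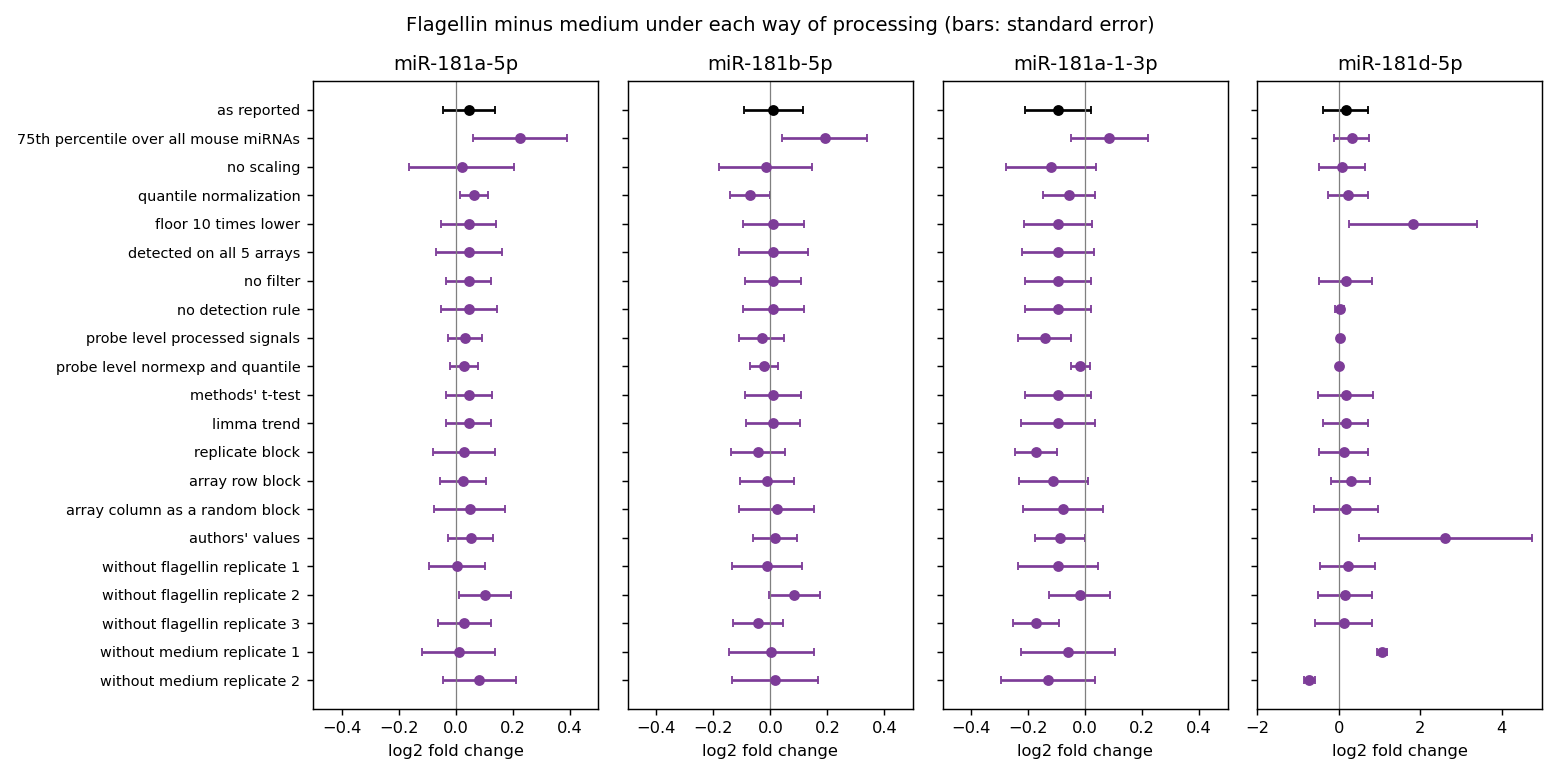
Log2 fold change (flagellin minus medium, horizontal axes, wider for miR-181d-5p) of the 4 tested members as reported (black) and under each alternative way of processing (rows), with the standard error as bars. miR-181a-5p stayed between 0.01 and 0.23 and miR-181b-5p between −0.07 and 0.19 over the alternatives, whereas miR-181d-5p ran from −0.72 to 2.62.

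Leaving out flagellin replicate 2, the array with the most red cell, endothelial and stromal marker signal, gave log2 fold changes of 0.10 for miR-181a-5p, 0.08 for miR-181b-5p, −0.02 for miR-181a-1-3p and 0.16 for miR-181d-5p. None of them passed an adjusted p of 0.05 by limma. The part of other cell types in the members' signals was not tested.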

How the data were processed

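The authors isolated total RNA, with the miRNA in it, from sorted BMDCs and labelled it with Cy3. They scanned 5 arrays on 1 slide and extracted signals with Agilent Feature Extraction 10.7 (10.7.3.1 per the file headers). The deposited intensity files gave probe signals, their errors and the total gene signal used here. The authors also deposited log2 values from GeneSpring, which differed from the log2 of the total gene signal by 1 constant on each array and served as an alternative. The detection rule recovered 5895 of 5895 miRNA and array pairs within 0.001. The total gene signal was scaled to the 75th percentile, floored, and tested on the log2 scale with lmFit and eBayes (limma 3.58.1, R 4.3.3) with Benjamini-Hochberg adjustment over 307 miRNAs, without a block. Single values were compared with exact permutation tests. The scripts were tested on simulated data. Array columns held 1 treatment each, so column and treatment cannot be told apart. All members were described, with the 3 nearest miRNAs of each 5p arm detected on all arrays. The members and lists were chosen with earlier results of these data known. Intervals and errors are limited by the number of arrays.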

Additional observations from a re-analysis of the deposited data

How the results depend on the processing

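No member passed an adjusted p of 0.05 by limma under any of the alternatives, the lowest being 0.205. miR-181a-5p kept its direction under all 20. miR-181b-5p turned negative in 8: −0.016 without scaling, −0.073 with quantile normalization, −0.031 from probe signals, −0.021 from probe signals with normexp and quantile normalization, −0.012 with the array row as a block, −0.043 with the replicate number as a block, and −0.012 and −0.043 without flagellin replicate 1 or 3, its range over left-out arrays being −0.043 to 0.084. miR-181a-1-3p turned to 0.085 with the percentile over all mouse miRNAs. miR-181d-5p turned to −0.72 without medium replicate 2 (range −0.72 to 1.06), and was 1.83 with a floor 10 times lower and 2.62 with the authors' values, both set by the value in place of the undetected array. The difference between miR-181c-5p and miR-181b-5p turned to 0.031 from probe signals. That between miR-181d-5p and miR-181a-5p turned to −0.021 without the detection rule and −0.81 without medium replicate 2 (range −0.81 to 1.05), and that between miR-181d-5p and miR-181b-5p to −0.74 (range −0.74 to 1.05). The ranges over left-out arrays were −0.57 to −0.010 for miR-181c-5p minus miR-181a-5p and −0.51 to −0.0037 for miR-181c-5p minus miR-181b-5p. The floor 10 times lower moved these pairs to −1.95 and −1.92, and those of miR-181d-5p to 1.78 and 1.82.

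Of all tested miRNAs, 2 passed an adjusted p of 0.05. The number was 4 with the lower floor and with the authors' values, and 1 with miRNAs detected on all arrays, with no filter, with limma's trend and with the array column as a random block. It was 0 with the percentile over all mouse miRNAs (14 at an unadjusted p under 0.05), no scaling (8), quantile normalization (18), no detection rule (17), probe signals (22), normexp (24) and the array row as a block (15). It was 0 to 1 without each array in turn, being 1 without flagellin replicate 3 and 0 without any other. The methods' t-test gave 2 after Benjamini-Hochberg adjustment, 14 at an unadjusted p under 0.05, and 2 of these when a fold of at least 2 was also required. With the replicate number as a block it was 0 (39 unadjusted). The replicate numbers were not shown to pair the arrays: the deviations of flagellin replicates 1 and 2 correlated with those of the same-numbered medium arrays at 0.047 and 0.0073 across miRNAs, and with 2 medium arrays these deviations mirror each other. The 2 medium arrays limit every comparison, and for miR-181c-5p and miR-181d-5p the signal over background does as well. Where an array was left out of the medium group, the lone array was assumed to vary like the flagellin arrays.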
